A study of Mus musculus with 8 samples.

Results

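Transcripts of Hedgehog signalling genes were measured in small intestines taken whole from E15.5 mouse embryos. The set was fixed by gene name and holds 9 genes: the ligands Shh and Ihh, the receptor and transducer genes Ptch1, Smo and Boc, the ligand-binding inhibitor Hhip, and the transcription factors Gli1, Gli2 and Gli3. All 9 were found among the 55681 genes of the deposited table, and all 9 were among the 14220 genes that reached a mean of 1 FPKM over the libraries and were tested. FPKM is a number of sequenced fragments scaled to gene length and library size. Levels can thus be compared between genes only roughly, since this scaling does not remove effects of GC content. There were 4 libraries labelled cKO, from embryos with the genotype Slmapfl/fl; Derom-Cre (written Dermo-Cre in another label), and 4 control libraries, from embryos with the genotype Slmapfl/fl and no Cre in the label. Both groups therefore carry floxed Slmap alleles, on a C57BL6J background, and per the series design each library is 1 embryo's intestine. Dermo1, an older name of Twist2, is a gene of mesenchymal cells, whereas the RNA came from the whole organ with its epithelium. The study was concerned with a short gut after loss of Slmap, and the comparison here asks how Hedgehog transcripts differed between the libraries labelled cKO and the controls.

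Hedgehog ligands are secreted proteins. In the developing gut the epithelium makes Shh and Ihh, and the surrounding mesenchyme receives them. PTCH1 holds back SMO until a ligand binds, after which SMO lets GLI2 and GLI3 switch target genes on instead of off. Gli1, Ptch1 and Hhip are themselves targets in many tissues, and Gli1 is often read as a gauge of the pathway. In the embryonic gut this signal is known for supporting mesenchymal growth and smooth muscle.

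Reads recovered from the FPKM values summed to between 16302122 and 17806397 per library in cKO and between 15663837 and 16759748 per library in control. Slmap lay at 25.5 ± 1.40 FPKM in the libraries labelled cKO and 24.1 ± 0.92 FPKM in the controls (SD, n = 4 each; limma adjusted p = 0.570). The value is a sum over the gene in the whole organ, and no source used here names the floxed exon, so it checks no label and directions follow the labels. Controls 3 and 4 stood apart from controls 1 and 2 along the first principal component of all tested genes, at 33.3 and 24.3 against -17.7 and -19.2. Along the same component cKO 2, at -27.5, stood apart from the other cKO libraries, at -5.54 to 9.24, on the side of controls 1 and 2. Along the second component cKO 1, 3 and 4 lay at 15.0, 21.6 and 24.6 and the controls at -15.8 to -12.4. There cKO 2, at -6.2, lay nearer to the controls. Fits without cKO 2 therefore leave out the cKO library that was most like the controls along that component. Values without controls 3 and 4 or without cKO 2 stand beside the results below that rest on them.

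None of the 9 Hedgehog genes passed the threshold with limma (adjusted p under 0.05 over all genes tested), which 0.0141% of all tested genes did. At an unadjusted p under 0.05 there were 3 of the 9, namely Gli1 and Boc on the lower side in cKO and Shh on the higher side, against 22.5% of all tested genes. limma-voom on the recovered reads also called 0 of the 9. The median log2 fold change of the 9 genes was -0.06, with 6 below 0, beside a median of -0.00161 and 50.3% below 0 over all tested genes. The values of 2 of the 9, Gli1 and Boc, did not overlap between the groups, and in both every cKO library was lower. Over all tested genes 15.4% did not overlap, 5.75% with the cKO libraries lower.

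**Figure D1:**
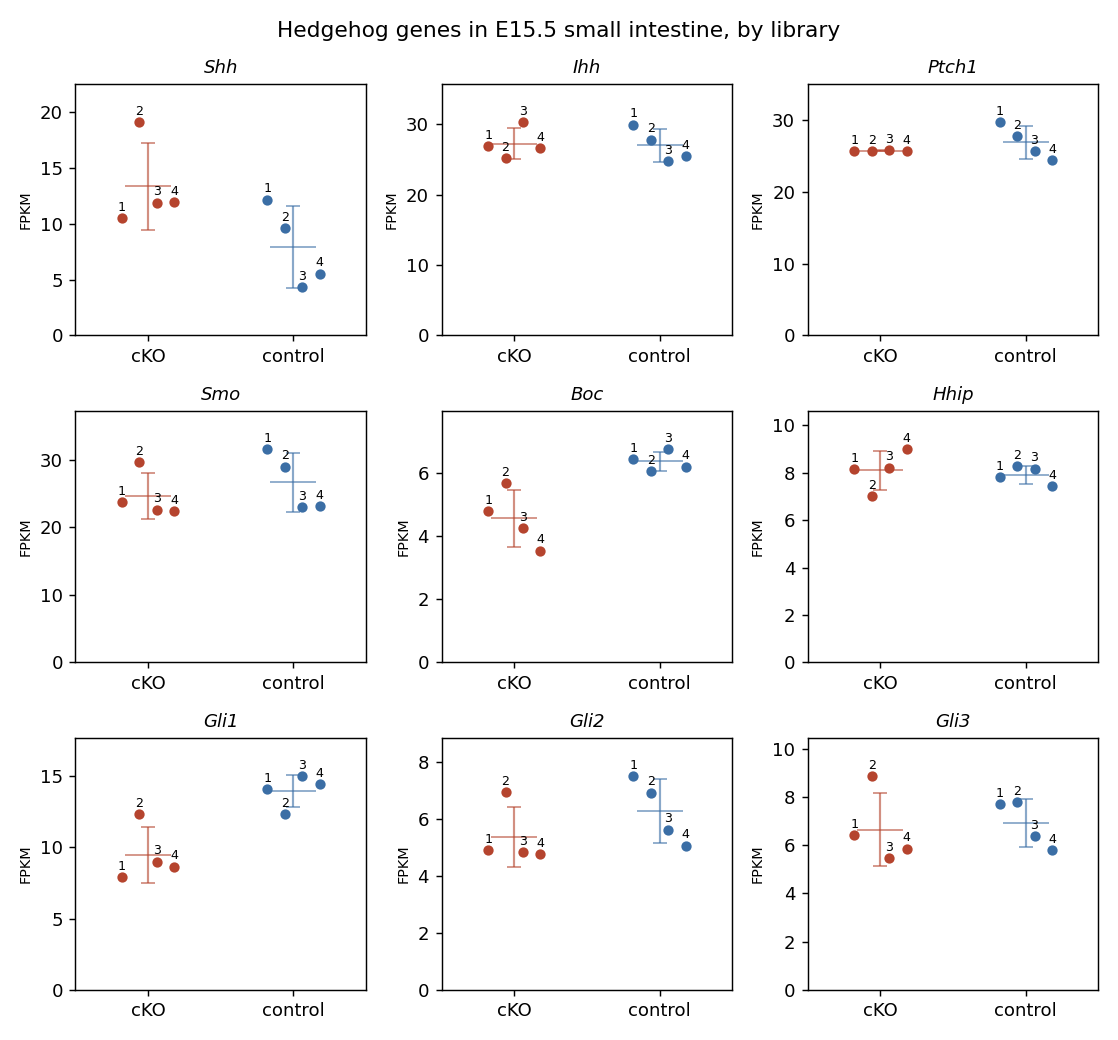
FPKM of the 9 Hedgehog genes in each library, with cKO on the left and control on the right of each panel. Points are libraries with their label number, horizontal marks are means and bars are 1 SD (n = 4 each). Gli1 and Boc show no overlap between groups, and Shh shows cKO 2 at the top and controls 3 and 4 at the bottom.

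The ligands came first. Shh (ENSMUSG00000002633, chromosome 5, 28661813 to 28672254, minus strand, GRCm39) lay at 10.5, 19.1, 11.9 and 12.0 FPKM in cKO 1 to 4, against 12.2, 9.62, 4.29 and 5.53 FPKM in controls 1 to 4. The groups overlapped. The highest library was cKO 2, the lowest were controls 3 and 4, and controls 1 and 2 lay close to cKO 1, 3 and 4. The means were 13.4 ± 3.89 FPKM in cKO and 7.91 ± 3.65 FPKM in control (SD, n = 4 each). On the log2 scale they differed by 0.75 ± 0.30 (SE; adjusted p = 0.184 with limma). The difference rested on the libraries that stood apart. It was 0.25 ± 0.23 on the log2 scale without controls 3 and 4 (limma adjusted p = 0.524) and 0.07 ± 0.11 without these and cKO 2 (limma adjusted p = 0.643). Shh was counted from 209 to 983 reads per library. A non-coding gene on the opposite strand, 9530036O11Rik, overlaps it and held 6 to 37 reads.

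Ihh (ENSMUSG00000006538, chromosome 1, 74984474 to 74990831, minus strand), the more abundant ligand, lay at 26.9, 25.2, 30.3 and 26.6 FPKM in cKO 1 to 4, against 30.0, 27.8, 24.8 and 25.5 FPKM in controls 1 to 4. The groups covered the same range. Their log2 fold change of 0.01 had a 95% interval of -0.19 to 0.22 (limma adjusted p = 0.948). After a correction for GC content and gene length in each library it was 0.25 ± 0.09 (SE, limma adjusted p = 0.396). Shh and Ihh thus did not share a pattern over the libraries: Ihh exceeded Shh in all 8, by 1.32 to 2.56 times in the cKO libraries and by 2.46 to 5.78 times in the controls. The third mammalian ligand gene, Dhh, lay at 0.03 to 0.09 FPKM in cKO and 0.03 to 0.13 FPKM in control and was below the filter.

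The receptor side showed levels close to each other in both groups, apart from Boc. Ptch1 (ENSMUSG00000021466, chromosome 13, 63656142 to 63721412, minus strand), the ligand receptor, lay at 25.7, 25.7, 25.9 and 25.7 FPKM in cKO 1 to 4, against 29.7, 27.7, 25.7 and 24.4 FPKM in controls 1 to 4. The spread was narrow in cKO, 25.7 ± 0.08 FPKM, and wider in control, 26.9 ± 2.35 FPKM (SD, n = 4 each). A log2 fold change of -0.06 had a 95% interval of -0.23 to 0.12 (limma adjusted p = 0.705), and the estimate was -0.15 without controls 3 and 4 (limma adjusted p = 0.184).

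Smo (ENSMUSG00000001761, chromosome 6, 29735502 to 29761364, plus strand), the membrane transducer that PTCH1 restrains, lay at 23.8, 29.7, 22.6 and 22.4 FPKM in cKO 1 to 4, against 31.6, 29.0, 23.0 and 23.1 FPKM in controls 1 to 4. The high libraries were cKO 2 and controls 1 and 2, and the other 5 lay together between 22.4 and 23.8 FPKM. The difference, -0.11 ± 0.13 on the log2 scale, did not pass (SE; adjusted p = 0.680 with limma).

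Boc (ENSMUSG00000022687, chromosome 16, 44305412 to 44379260, minus strand), a cell-surface co-receptor that helps present ligand to PTCH1, lay at 4.79, 5.67, 4.24 and 3.54 FPKM in cKO 1 to 4, against 6.44, 6.04, 6.74 and 6.19 FPKM in controls 1 to 4. All 4 cKO libraries were lower than every control, with cKO 2 nearest to them. The means were 4.56 ± 0.90 FPKM in cKO and 6.35 ± 0.31 FPKM in control (SD, n = 4 each), a ratio of 0.718. The log2 fold change of -0.42 ± 0.12 did not pass (SE, limma adjusted p = 0.0950). It was -0.51 ± 0.10 without cKO 2, which passed (limma adjusted p = 0.0264, with 4.15% of all tested genes called lower), and -0.39 ± 0.15 without controls 3 and 4 (limma adjusted p = 0.172). After the correction for GC content and gene length it was -0.29 ± 0.11 (SE, limma adjusted p = 0.402).

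Hhip (ENSMUSG00000064325, chromosome 8, 80692480 to 80784635, minus strand), which encodes a membrane protein that binds and sequesters ligand, lay at 8.15, 7.01, 8.21 and 8.98 FPKM in cKO 1 to 4, against 7.80, 8.26, 8.16 and 7.42 FPKM in controls 1 to 4. The groups overlapped throughout, and cKO 2 was the lowest of the 8. For Hhip the log2 fold change was 0.02, with a 95% interval of -0.16 to 0.21 (limma adjusted p = 0.890).

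Ptch1 and Hhip are the textbook feedback targets of the set, and their 250 bases upstream of a RefSeq start are shown. RefSeq promoters on GRCm38.p6 were at hand for 6 of the 9 genes, Ihh, Ptch1, Smo, Hhip, Gli2 and Gli3, and Shh, Boc and Gli1 had no entry. A GLI consensus of 9 letters, GACCACCCA, was searched on both strands, as was its shorter part CCACCCA, which every copy of the longer one contains. Capitals would mark a match. Neither was in any of the 6 windows, against 0.225% and 8.11% of all 32851 windows of that length, which says only that these letters are not there. Ptch1 is shown from chr13:63565736-63565985 and Hhip from chr8:80058009-80058258, both on the minus strand of GRCm38.p6 and written 5′ to 3′ toward the gene.
Ptch1: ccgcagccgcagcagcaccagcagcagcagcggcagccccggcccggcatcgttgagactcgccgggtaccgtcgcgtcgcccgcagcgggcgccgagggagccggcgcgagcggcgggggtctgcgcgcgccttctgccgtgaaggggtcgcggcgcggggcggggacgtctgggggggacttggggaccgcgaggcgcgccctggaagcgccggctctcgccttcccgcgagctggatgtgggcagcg
Hhip: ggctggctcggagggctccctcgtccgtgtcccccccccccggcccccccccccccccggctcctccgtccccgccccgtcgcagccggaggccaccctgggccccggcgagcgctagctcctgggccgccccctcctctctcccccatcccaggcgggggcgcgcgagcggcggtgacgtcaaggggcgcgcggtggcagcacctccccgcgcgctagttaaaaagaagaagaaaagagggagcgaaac

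Of the GLI factors, Gli1 was the one whose values did not overlap between the groups. Gli1 (ENSMUSG00000025407, chromosome 10, 127165751 to 127177843, minus strand), an activator whose own transcription the pathway raises, lay at 7.89, 12.3, 9.01 and 8.65 FPKM in cKO 1 to 4, against 14.1, 12.3, 15.0 and 14.5 FPKM in controls 1 to 4. Every cKO library was lower than every control, but cKO 2 and control 2 differed by only 0.0267 FPKM. The means were 9.47 ± 1.96 FPKM in cKO and 14.0 ± 1.15 FPKM in control (SD, n = 4 each), a ratio of 0.678. For Gli1 the log2 fold change was -0.53 with a 95% interval of -0.82 to -0.24, and it did not pass (limma adjusted p = 0.0801).

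The Gli1 difference was similar in size whichever of the libraries that stood apart were kept. It was -0.46 ± 0.17 without controls 3 and 4 (limma adjusted p = 0.156), -0.65 ± 0.08 without cKO 2 (limma adjusted p = 0.0175) and -0.58 ± 0.08 without all 3 (SE, limma adjusted p = 0.00984). After the correction for GC content and gene length it was -0.35 ± 0.13 (limma adjusted p = 0.401). The longest annotated Gli1 transcript is 59.0% GC, and across the tested genes the log2 fold change was inversely related to GC content (Spearman rho = -0.558 over genes, which are not independent replicates). Gli1 was counted from 623 to 1281 reads per library. Arhgap9, a protein-coding gene that overlaps it on the opposite strand, held 69 to 89 reads, and no source used here says whether the counting used strand.

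Gli2 (ENSMUSG00000048402, chromosome 1, 118761862 to 118981349, minus strand), the main activator at the head of the response, lay at 4.90, 6.93, 4.83 and 4.76 FPKM in cKO 1 to 4, against 7.48, 6.91, 5.62 and 5.06 FPKM in controls 1 to 4. Again cKO 2 sat with controls 1 and 2, and cKO 1, 3 and 4 lay just under control 4. On the log2 scale Gli2 differed by -0.19 ± 0.14 (SE; adjusted p = 0.455 with limma). Gli3 (ENSMUSG00000021318, chromosome 13, 15637820 to 15904611, plus strand), which acts mostly as a repressor when no ligand is present, lay at 6.42, 8.87, 5.45 and 5.87 FPKM in cKO 1 to 4, against 7.71, 7.80, 6.40 and 5.79 FPKM in controls 1 to 4. Its highest library was cKO 2 and its lowest cKO 3, so the cKO group enclosed all controls. On the log2 scale Gli3 differed by -0.06 ± 0.15 (SE; adjusted p = 0.839 with limma).

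**Figure D2:**
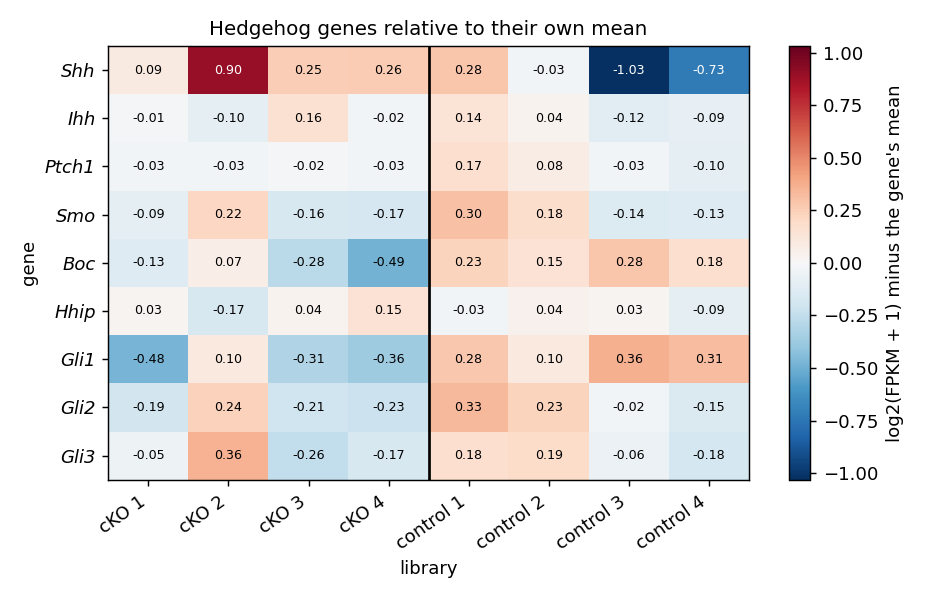
Level of each Hedgehog gene in each library as log2(FPKM + 1) minus the gene's mean over the 8 libraries, with cKO left of the line and control right of it. Smo, Gli2 and Gli3 are above their mean in cKO 2 and in controls 1 and 2, while Gli1 is 0.10 in cKO 2, -0.48 to -0.31 in the other cKO libraries and 0.10 to 0.36 in the controls.

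With controls 3 and 4 and cKO 2 all left out, which leaves 3 cKO libraries against 2 controls and was chosen after the data were seen, 5 of the 9 genes passed and were lower in cKO. In that fit 14.5% of all tested genes were called lower and 15.3% higher. The 5 were Gli1, Boc, Gli2 at -0.49 ± 0.07 (limma adjusted p = 0.00833), Smo at -0.39 ± 0.06 (limma adjusted p = 0.0108) and Gli3 at -0.34 ± 0.08 (SE, limma adjusted p = 0.0266). Ptch1, at -0.15 ± 0.05, did not pass (SE, limma adjusted p = 0.0731), nor did Hhip at 0.07 ± 0.07 (limma adjusted p = 0.498). Smo had a log2 fold change of 0.05 and Gli2 of -0.05 in all 8 libraries after the GC and length correction. With all 8 libraries weighted by array quality, which counted cKO 2 least, at a weight of 0.329, limma called Gli1 and Boc lower and no other of the 9, against 7.24% of all tested genes. Smo, Gli2 and Gli3 each passed in 1 of 20 alternative fits, that without controls 3 and 4 and cKO 2. Their estimates were below 0 in 20 of these fits for Gli2 and in 19 each for Smo and Gli3.

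**Figure D3:**
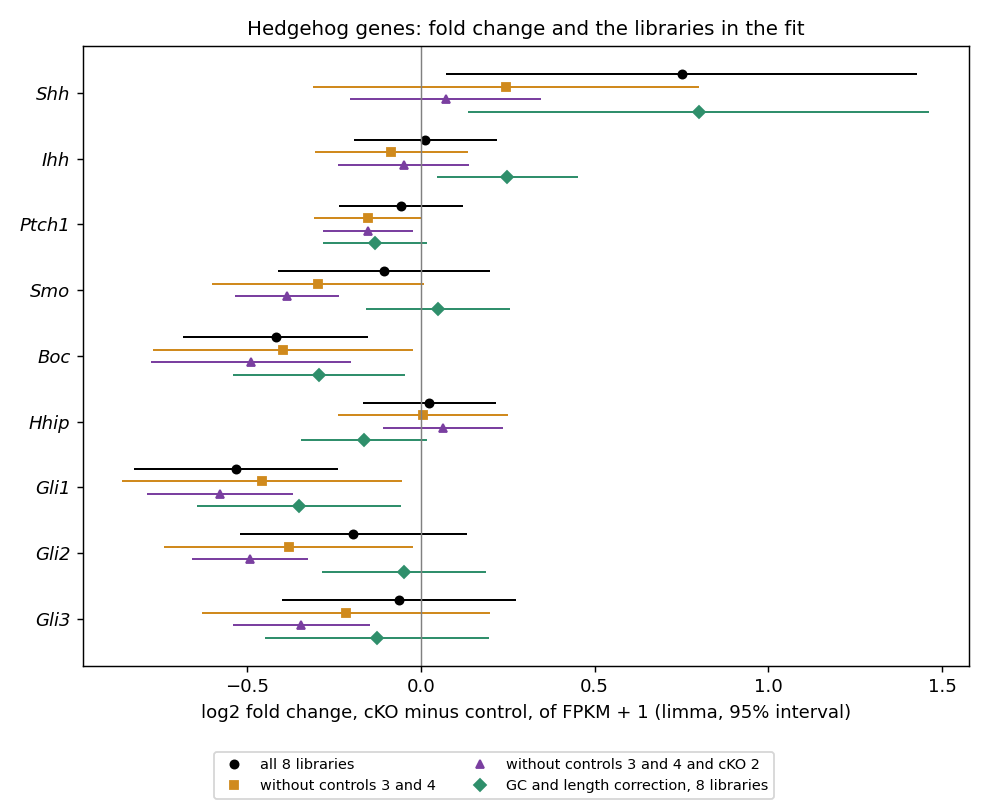
Log2 fold change of FPKM + 1, cKO minus control, for the 9 Hedgehog genes under 4 fits, with points for the estimate and lines for the 95% interval of limma. The estimates of Gli1, Boc, Ptch1, Gli2 and Gli3 lie below 0 in all 4 fits. Only for Gli1 and Boc do the whole intervals, which are not adjusted for the number of genes. Shh moves from 0.75 with all 8 libraries to 0.07 without controls 3 and 4 and cKO 2.

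By level, Ihh, Ptch1 and Smo formed the upper set, with means of 24.6 to 27.3 FPKM in cKO and 26.6 to 27.0 FPKM in control, and their ranges overlapped in both groups. In the controls Gli1 came next, at 14.0 FPKM, apart from Smo above it and Hhip below it. In the cKO libraries Shh came next, at 13.4 FPKM, and its range overlapped that of Gli1. The remaining genes lay between 4.56 and 8.09 FPKM in cKO and between 6.27 and 7.91 FPKM in control, and neighbours in that order overlapped in both groups. In the cKO libraries the range of Gli1 also overlapped that of Hhip.

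Of 42 further genes of the pathway, 38 were tested, and limma called 0 in either direction. At an unadjusted p under 0.05 there were 9 lower and 3 higher in cKO, against 9.87% of all tested genes lower and 12.6% higher, and limma-voom called 0. The median log2 fold change was -0.09, with 26 of 38 below 0. The values of 4 genes lay lower in cKO without overlap and those of 3 higher, against 5.75% and 9.61% of all tested genes. Without cKO 2, limma called 7 of the 38 lower and 1 higher, against 4.15% and 5.57% of all tested genes, and without controls 3 and 4 it called 0.

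The log2 fold changes of ligand processing and release genes had a median of -0.16, and all 6 tested genes were below 0. Scube1, which encodes a secreted protein of the family that helps release ligand, lay at 1.09 ± 0.12 FPKM in cKO and 1.55 ± 0.17 FPKM in control (SD, n = 4 each; limma adjusted p = 0.154). Scube3, of the same family, lay at 0.963 ± 0.15 FPKM in cKO and 1.42 ± 0.24 FPKM in control (limma adjusted p = 0.189). Of 4 tested co-receptor and binding-protein genes, 3 were below 0, with a median of -0.20. Cdon, the closest relative of Boc, lay at 9.79 ± 1.27 FPKM in cKO and 12.2 ± 1.06 FPKM in control (limma adjusted p = 0.145), and its log2 fold change of -0.29 was -0.37 without cKO 2, which passed (limma adjusted p = 0.0393). Gas1, a membrane-anchored co-receptor, lay at 28.7 ± 10.4 FPKM in cKO and 39.4 ± 2.64 FPKM in control (limma adjusted p = 0.189), and cKO 2, at 44.0 FPKM, was above every control. The log2 fold change of Gas1 was -0.50 with all 8 libraries and -0.72 without cKO 2, which passed (limma adjusted p = 0.0175). After the correction for GC content and gene length Gas1 was at -0.32 (limma adjusted p = 0.490) and Cdon at -0.35 (limma adjusted p = 0.371). Scube1 was then at -0.15 (limma adjusted p = 0.562) and Scube3 at -0.18 (limma adjusted p = 0.593).

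Signal transduction genes were split, with 7 of 14 below 0 and a median of -0.04. Kif7, a kinesin-like regulator of GLI proteins at the cilium, lay at 1.83 ± 0.30 FPKM in cKO and 2.81 ± 0.35 FPKM in control (SD, n = 4 each; limma adjusted p = 0.0838). Cul3, a ubiquitin ligase scaffold that works with Spop on GLI proteins among many other substrates, lay at 38.8 ± 1.70 FPKM in cKO and 29.1 ± 3.19 FPKM in control (limma adjusted p = 0.0782). In both genes the groups did not overlap, and both passed without cKO 2, Kif7 at -0.50 (limma adjusted p = 0.0290) and Cul3 at 0.41 (limma adjusted p = 0.0413). With all 8 libraries Kif7 was at -0.43 and Cul3 at 0.41. After the correction for GC content and gene length Kif7 was at -0.24 (limma adjusted p = 0.388) and Cul3 at 0.21 (limma adjusted p = 0.517). The 4 cilium genes had a median of -0.01, and those of smallest p were Ift88 at 0.14 (limma adjusted p = 0.409) and Ift172 at -0.12 (limma adjusted p = 0.534).

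Among 10 genes known as Hedgehog or GLI targets in gut mesenchyme or elsewhere, 8 lay below 0 on the log2 fold scale and the median was -0.12. Osr1, a zinc-finger factor of embryonic mesoderm, lay at 7.77 ± 2.32 FPKM in cKO and 12.2 ± 0.68 FPKM in control (SD, n = 4 each; limma adjusted p = 0.0870). Bmp4, a mesenchymal growth factor gene, lay at 27.9 ± 2.37 FPKM in cKO and 32.4 ± 0.79 FPKM in control (limma adjusted p = 0.156). In both genes every cKO library was below every control. Without cKO 2 both passed, Osr1 at -0.79 on the log2 scale (limma adjusted p = 0.0175) and Bmp4 at -0.27 (limma adjusted p = 0.0415). With all 8 libraries Osr1 was at -0.63 and Bmp4 at -0.22. After the correction for GC content and gene length Osr1 was at -0.46 (limma adjusted p = 0.384) and Bmp4 at -0.16 (limma adjusted p = 0.466). The forkhead genes Foxf1 and Foxl1, targets in gut mesenchyme, had log2 fold changes of -0.24 and -0.09, and their groups overlapped.

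**Figure D4:**
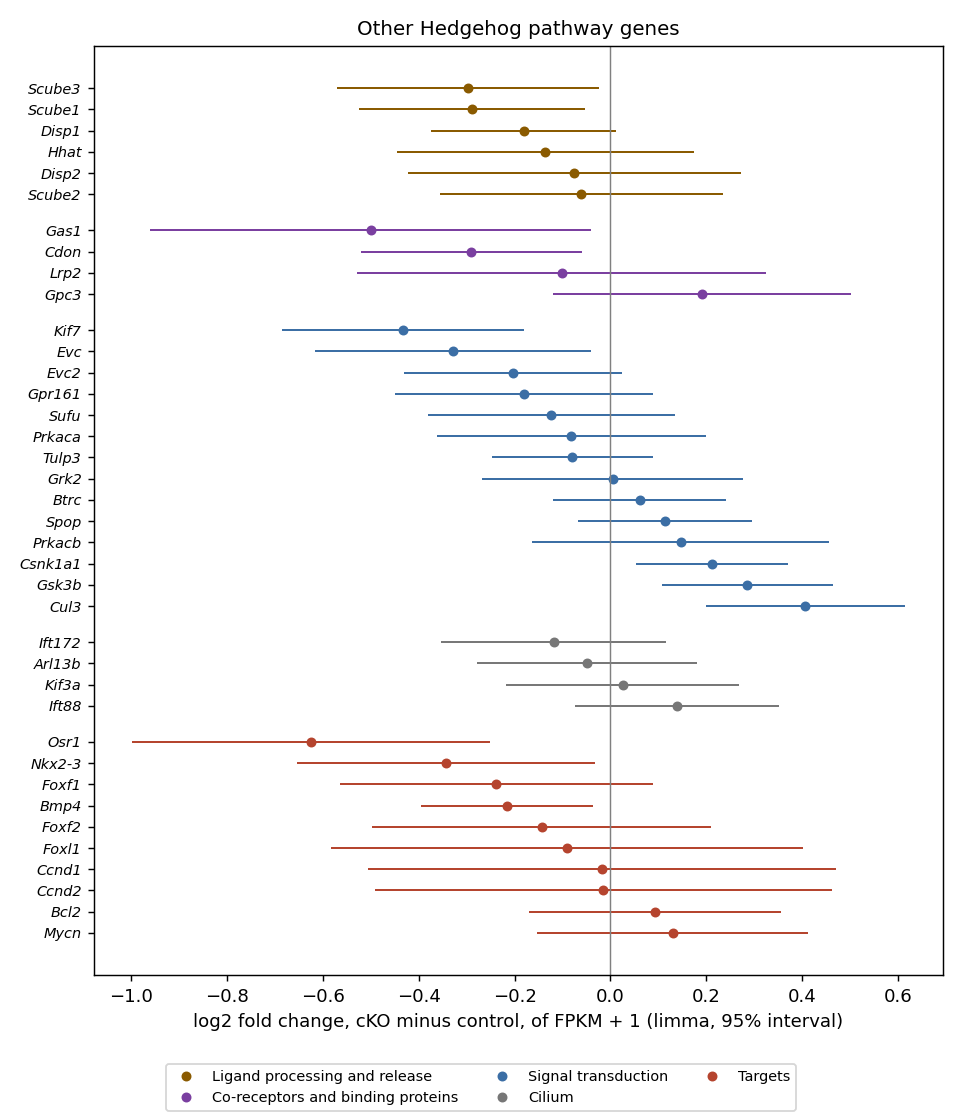
Log2 fold change of FPKM + 1, cKO minus control, for the 38 tested pathway genes outside the set, grouped by role, with points for the estimate and lines for the 95% interval of limma. The ligand processing genes lie below 0, the signal transduction genes lie on both sides from -0.43 to 0.41, and the targets run from -0.63 to 0.13.

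In bulk samples fewer cells of a type and less RNA per cell cannot be told apart, so the levels of cell type markers stand beside these results. Epithelium, the source of the ligands, was present in every library, with 10 markers that summed to 1214 to 1610 FPKM in cKO and 1094 to 1535 FPKM in control. The lowest epithelial sums were in control 3, at 1094 FPKM, then in cKO 2, at 1214 FPKM, and control 4, at 1268 FPKM. Controls 3 and 4 were also lowest for Shh, whereas cKO 2 was highest. Fibroblast and mesenchyme markers, 9 in number, summed to 837, 972, 560 and 600 FPKM in cKO 1 to 4, against 1049, 1035, 674 and 635 FPKM in controls 1 to 4. The sums were highest in controls 1 and 2 and cKO 2, the libraries in which Smo, Gli2 and Gli3 were also high, and the same 3 libraries had the highest sums of the smooth muscle, enteric neural crest and erythroid lists. Gli1 and Boc did not follow that order in the controls, since both were at least as high in control 3 as in controls 1 and 2. Among the cKO libraries both did have their highest level in cKO 2, at 12.3 FPKM for Gli1 and 5.67 FPKM for Boc.

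Smooth muscle markers, 6 in number, summed to 1080 to 1471 FPKM in cKO and 1204 to 1725 FPKM in control. Enteric neural crest markers, 6 in number, summed to 47.1 to 79.0 FPKM in cKO and 46.6 to 76.96 FPKM in control. Endothelial markers, 5 in number, summed to 51.5 to 62.7 FPKM in cKO and 40.02 to 67.3 FPKM in control. Erythroid markers, 5 in number, summed to 505 to 1061 FPKM in cKO and 352 to 1031 FPKM in control, so they were high and low in both groups. Mesothelial markers, 5 in number, summed to 26.6 to 30.9 FPKM in cKO and 37.1 to 63.2 FPKM in control, without overlap, and 3 of them singly showed none. Over all tested genes 5.75% were lower in cKO without overlap and 9.61% higher. In the other lists 1 smooth muscle and 1 mesenchymal marker were lower without overlap, and 1 epithelial, 1 endothelial and 1 mesenchymal marker higher. Macrophage markers, 5 in number, summed to 37.7 to 52.4 FPKM in cKO and 51.2 to 65.0 FPKM in control. Log2 fold changes were below 0 in 1 of 10 epithelial, 6 of 8 tested mesenchymal, 5 of 6 smooth muscle and 5 of 6 neural crest markers. The same held for 1 of 5 endothelial, 5 of 5 mesothelial, 5 of 5 macrophage and 1 of 5 erythroid markers. It held for 3 of 4 tested pancreas and liver markers, and for 50.3% of all tested genes. limma called 0 markers in every list. The part of these cells in the results for Gli1 and Boc was not tested. The mesenchymal list holds Twist2, the gene behind the Cre driver's name, which lay at 0.131 to 0.319 FPKM in cKO and 0.319 to 0.493 FPKM in control on 7 to 25 reads. No marker of any list was at 0 in all libraries, but Tagln averaged 1.67 FPKM and Alb 0.140 FPKM. Pancreas and liver markers summed to 169 to 679 FPKM in cKO and 350 to 642 FPKM in control.

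The genes most like Gli1 were taken as those whose centred log2(FPKM + 1) values differed least from its own over the 8 libraries, among 8252 protein-coding genes of at least 5 FPKM. They were Ccdc107, Thap3, Ldb1, Ppp1r12c and Slc12a4, with root mean square differences of 0.07 to 0.09, against a median of 0.38 over all candidates. Ccdc107, the nearest, lay at 11.8, 16.2, 12.1 and 12.8 FPKM in cKO 1 to 4, against 17.98, 17.1, 19.8 and 19.4 FPKM in controls 1 to 4. Like Gli1, each of the 5 had its highest cKO level in cKO 2, which follows from how they were chosen. No member of the pathway was among them, but pathway genes under 5 FPKM, such as Kif7, could not enter. The genes most like Shh were Ncl, Mthfd1l, Hmga2, Ddx21 and Rrm1, at differences of 0.19 to 0.24 against a median of 0.56. Ncl, which encodes nucleolin, lay at 112.5, 135.9, 111.9 and 107.9 FPKM in cKO 1 to 4, against 100.04, 103.9, 50.2 and 62.7 FPKM in controls 1 to 4. All 5 were lowest in controls 3 and 4 and highest in cKO 2, as Shh was, which follows from how they were chosen.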

How the data were processed

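RNA from 8 libraries, 4 cKO and 4 control, was analysed from 1 table of FPKM values that the authors deposited, with symbols, positions and lengths for 55681 genes. In the copy used 3 more lines were blank and were not analysed here. Per the submitters' processing notes, the build was GRCm39 and the tools were DESeq2 1.20.0, featureCounts, HISAT2, fastp and CASAVA, with no roles or settings stated. FPKM multiplied by gene length gave whole reads, within 0.01, for 100% of values above 0. The totals behind the deposited FPKM were 0.969 to 1.09 times the summed reads, so the authors' values carry a scaling that no label describes. It was 0.969 to 1.01 in cKO and 1.00 to 1.09 in control, highest in controls 3 and 4, at 1.09 and 1.06. With scaling by summed reads the median log2 fold change of the 9 members was -0.13, beside -0.06 in the main fit.

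Groups were compared on log2(FPKM + 1) with limma 3.58.1 (R 4.3.3) and its trended prior variance, 2-sided, over 14220 genes whose mean reached 1 FPKM, with Benjamini-Hochberg adjustment over all of them. Fold changes on this scale understate the change of low genes. No litter or batch is labelled, and the p-values reflect the spread between these libraries. GC content came from the longest GENCODE M21 transcript, found for 93.5% of genes. Named genes were the 9 members, the 2 of smallest p in each of 5 pathway lists, and the 5 genes nearest to Gli1 and to Shh. A further gene of the co-receptor list is not reported here. Foxf1, Foxl1, Dhh, Arhgap9 and the other overlapping genes were added after their values were seen. Members and lists were chosen with earlier results of these data known. The closing section gives the effect of other scalings, filters, weights and sets of libraries.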

Additional observations from a re-analysis of the deposited data

Results flagged for a closer look

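A library was singled out where its gap to the nearest library of its group exceeded the share of the group's range that Dixon's test allows at the 95% level, which chance gives in about 1 in 20 groups. Of 62 groups of 4 libraries examined, 8 held such a library, 3 of them in Hedgehog genes and 5 in genes chosen for their likeness to Gli1 or Shh over the same libraries. The last 5 follow in part from that choice, so the total cannot be set against the chance rate. Among the Hedgehog genes, Shh lay at 19.1 FPKM in cKO 2 and at 10.5 to 12.0 FPKM in the other cKO libraries. Gli2 lay at 6.93 FPKM in cKO 2 and at 4.76 to 4.90 FPKM in the other cKO libraries. Ptch1 lay at 25.9 FPKM in cKO 3 and at 25.7 FPKM in each of the others, a gap that is large only because the group was so narrow. Among the genes most like Gli1, cKO 2 stood out for Thap3 at 8.30 FPKM, Ldb1 at 23.5 FPKM and Ppp1r12c at 14.3 FPKM, in each case toward the controls. Among those most like Shh, cKO 2 stood out for Ncl at 135.9 FPKM and Rrm1 at 30.2 FPKM.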

How the results depend on the processing

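Of 20 alternatives, Gli1, Boc, Gli2 and Ptch1 were below 0 and Shh above 0 in all. The ranges were -0.65 to -0.35 for Gli1, -0.57 to -0.29 for Boc and -0.49 to -0.05 for Gli2. They were -0.15 to -0.0088 for Ptch1 and 0.07 to 0.97 for Shh. Called Hedgehog genes, all lower in cKO, numbered 2 with array quality weights, 5 without controls 3 and 4 and cKO 2, and 0 to 2 with 1 library left out, the 2 being Gli1 and Boc without cKO 2. Called pathway genes numbered 3 higher and 9 lower with array quality weights, 1 higher and 16 lower without those 3 libraries, and 0 to 1 higher and 0 to 7 lower with 1 library left out, the most without cKO 2. Over all genes, against 0 higher and 2 lower, there were 5 and 23 with scaling by summed reads, 14 and 20 with quantile normalization, 1180 and 1029 with array quality weights, 2171 and 2069 without the 3 libraries, and 0 to 792 higher and 0 to 590 lower with 1 left out, the most without cKO 2. Higher genes numbered 1 after the GC and length correction and 1 without controls 3 and 4. Lower genes numbered 0 with a pseudocount of 0.1, with no filter on low values, with the replicate block and with limma-voom. With the label number as a replicate block, the adjusted p of limma was 0.124 for Gli1 and 0.126 for Boc. Same-numbered libraries correlated at 0.069 to 0.326 in their deviations, 1 pair at under 0.1 and not each best with its own number, so the numbers were not taken as pairs.

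Some genes near 0 turned sign. Ihh was -0.056 with summed reads, -0.052 with quantile normalization, -0.060 with limma-voom, -0.084 without controls 3 and 4, -0.049 without these and cKO 2, and -0.038 to 0.062 with 1 library left out. Hhip was -0.039 with summed reads, -0.046 with limma-voom, -0.16 after the GC and length correction, and -0.022 to 0.084 with 1 left out. After that correction Smo was 0.050, Slmap -0.040 and Ift88 -0.039. Gli3 lay at -0.19 to 0.014 with 1 left out, and Mthfd1l at -0.023 without the 3 libraries. The cause of these moves was not tested. With 4 libraries a group, the 95% interval of the Ptch1 difference ran from -0.23 to 0.12.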

Other observations

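Ratios between genes of the same library, given as values with no test, set Gli1 beside other mesenchymal and pathway genes. In RNA of the whole organ they do not show which cells held each transcript. Gli1 was 0.333 to 0.553 times Pdgfra, a fibroblast receptor gene, in the cKO libraries and 0.621 to 0.737 times in the controls, without overlap. Pdgfra was itself higher in cKO without overlap, at 21.7 to 23.7 FPKM in cKO and 19.9 to 21.5 FPKM in control, whereas 6 of the 8 tested genes of the fibroblast and mesenchyme list were below 0. Set against Pdgfrb, another gene of that list, Gli1 was 0.443 to 0.715 times as high in the cKO libraries and 0.571 to 0.971 times in the controls, and 1 of the 4 cKO libraries was below every control. Gli1 was 0.307 to 0.480 times Ptch1 in the cKO libraries and 0.445 to 0.593 times in the controls, and 3 of the 4 cKO libraries were below every control, the exception being cKO 2. Gli1 was 1.61 to 1.86 times Gli2 in the cKO libraries and 1.79 to 2.86 times in the controls, and 2 of the 4 cKO libraries were below every control, with controls 1 and 2 close to cKO. Gli1 was 1.23 to 1.65 times Gli3 in the cKO libraries and 1.58 to 2.50 times in the controls, with 3 of 4 cKO libraries below every control. Boc was 0.407 to 0.491 times Cdon in the cKO libraries and 0.493 to 0.541 times in the controls, lower in 4 of 4 cKO libraries, though cKO 2 and control 3 almost met. Gli3 was 1.13 to 1.31 times Gli2 in the cKO libraries and 1.03 to 1.15 times in the controls, with 3 of 4 cKO libraries above every control.

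Set against the epithelial gene Epcam, Shh was 2.74 to 6.18 per 100 in the cKO libraries and 1.60 to 3.71 per 100 in the controls. The groups overlapped, and 1 cKO library, cKO 2, was above every control. The other cKO libraries lay at 2.74 to 3.05 per 100, controls 1 and 2 at 3.71 and 2.94, and controls 3 and 4 at 1.60 and 1.75. Ihh was 6.78 to 8.14 per 100 in the cKO libraries and 8.06 to 9.24 per 100 in the controls, with 3 of 4 cKO libraries below every control. Epcam itself lay at 384, 310, 393 and 392 FPKM in cKO 1 to 4. In controls 1 to 4 it lay at 329, 327, 269 and 316 FPKM. Both ratios thus move with Epcam as well as with the ligand, and Ihh alone had a log2 fold change of 0.01.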
